A study of Mus musculus with 4 samples.

Results

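The osteoblast genes described here are 10 genes that bone-forming cells use, and they were taken by symbol, whatever their level: the transcription factors Runx2, Sp7 and Dlx5, the enzyme gene Alpl, the matrix protein genes Bglap, Spp1, Ibsp and Dmp1, the peptidase gene Phex, and the secreted Wnt inhibitor gene Sost. They are 10 of 21878 genes, and 42 of 75959 transcript rows, in the mRNA table. In bone formation, Runx2 commits mesenchymal cells to the osteoblast line and Sp7 acts downstream of it. The cells then make collagen, alkaline phosphatase and acidic phosphoproteins that bind calcium, and osteocalcin marks mature osteoblasts. Cells that are buried in the mineral become osteocytes, which use Dmp1, Phex and Sost.

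The study profiled total RNA, depleted of ribosomal RNA, from C3H10T1/2, a mouse embryonic mesenchymal line that can form muscle, fat, cartilage and bone cells. It compared untreated cells, for which no culture time was given, with cells kept in 20 micromol/L of 5-AZA, an inhibitor of DNA methylation, for 72 hours and then in fresh growth medium for 21 days. The question was how RNA levels differ after a treatment used to drive this line towards muscle and heart muscle cells. Each group had 2 samples (untreated replicates 1 and 2, 5-AZA replicates 101 and 102). Since no culture time was given for the untreated cells, the treatment and any difference in time in culture cannot be told apart.

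Levels are in FPKM, which counts fragments per length of transcript and per number of mapped fragments, summed over the transcripts of a gene. From the step size of the circular RNA values, taking the smallest value as 2 reads, the libraries held 92975678 and 93426482 reads in untreated replicates 1 and 2 and 92903364 and 93920706 in 5-AZA replicates 101 and 102. The number of genes with at least 1 FPKM was 10355 and 10298 in the untreated samples and 10928 and 11124 in the 5-AZA samples. Nothing in the sources says that the samples came from separate cultures, although the study calls them biological repeats, so the p-values measure only the spread between these samples.

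The labels call the cells mesenchymal stem cells, and the untreated samples held most of the markers of that type. Ly6a, a surface antigen of mesenchymal progenitors, stood at 186 and 181 FPKM in untreated replicates 1 and 2, and the limb and craniofacial mesenchyme factor Prrx1 at 127 and 111 FPKM. Thy1, a surface glycoprotein used to define such cells, was low in them, at 0.578 and 0.785 FPKM. Nt5e, which encodes the ectonucleotidase CD73 and also belongs to the usual definition, was listed at 0 in both.

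Among the 10 osteoblast genes, the matrix and mineral genes Bglap, Spp1, Dmp1 and Phex were higher after 5-AZA. The early regulator Runx2, summed over all its transcript records, was lower by less than the fold required. With its curated records alone the 5-AZA samples were the higher ones. Sp7 and Alpl were listed at 0 in both untreated samples and stood under 0.2 FPKM after 5-AZA. Ibsp was listed at 0 in all 4 samples, and Sost was listed at 0 in all but 5-AZA replicate 101. In bulk RNA, fewer cells of a type and less RNA per cell cannot be told apart.

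A gene was called when limma gave a Benjamini-Hochberg adjusted p below 0.05 over all genes and the change was over 2-fold on the scale of log2(FPKM + 0.1), a scale that understates the changes of low genes. Of the 10 genes, 6 had a mean of at least 0.1 FPKM and were tested, and Bglap passed that limit only through its 5-AZA samples. Of the 6, 4 were called higher, against 1724 of 13199 genes tested (13.1%), and 0 were called lower (also 0 at an unadjusted p under 0.05 in limma and that fold), against 174 genes (1.32%). Both 5-AZA values lay above both untreated values for 5 of the 6 genes, against 36.8% of all genes tested, and below them for Runx2 alone, against 25.4%. Since Bglap could be called in 1 direction alone, the count without it is 3 of 5 called higher. Bglap is also among the genes whose 5-AZA values lay above the untreated ones, and for the same reason it could not lie below them. The others there were Dlx5, Spp1, Dmp1 and Phex. These counts describe the tested genes and not all 10.

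Removal of 5-AZA replicate 101 left 2 of the osteoblast genes called higher, Bglap and Spp1, and so did removal of replicate 102. The count over all genes fell to 925 and 733 higher calls in those fits, and to 52 and 70 lower calls, against 1724 and 174. Quantile normalization divided all calls into 1041 higher and 886 lower, so that 54.0% were higher, against 90.8%. It moved the median log2 change of all genes from 0.05 to -0.12, and centring on sample medians moved it to -0.06 and scaling to the FPKM sum over mRNAs and lncRNAs, chosen after seeing the data, to -0.10. Changes below are read beside these shifts. With 2 samples against 2, an exact permutation test could not give a two-sided p below 0.333.

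**Figure D1:**
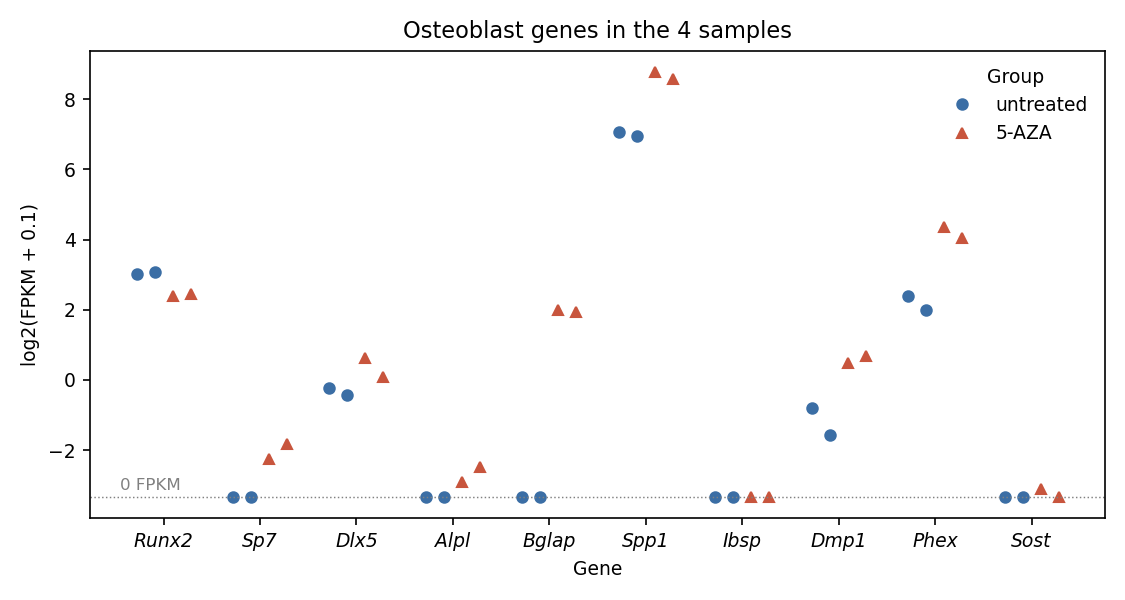
Level of each osteoblast gene as log2(FPKM + 0.1), with 1 point for each sample (circles untreated, triangles 5-AZA) and the dotted line at 0 FPKM. Spp1 was the highest gene in all 4 samples, Bglap lay at the line in both untreated samples and at 3.85 and 3.72 FPKM in the 5-AZA samples, and Ibsp lay at the line in all 4.

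Runx2, the transcription factor that starts osteoblast differentiation, had 8.06 and 8.28 FPKM in untreated replicates 1 and 2 and 5.19 and 5.32 FPKM in 5-AZA replicates 101 and 102. Both 5-AZA samples lay below both untreated samples, and the samples within each group were close. The log2 fold change was -0.63 ± 0.14 (SE, n = 2 per group), with a Benjamini-Hochberg adjusted p of 0.0111 in limma. This difference was under 2-fold, at 0.647 of the untreated level, so Runx2 was not called.

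The direction for Runx2 depended on which of its 15 transcript records were counted. The 6 curated records summed to 3.13 and 2.95 FPKM in untreated replicates 1 and 2 and to 3.68 and 3.30 FPKM in 5-AZA replicates 101 and 102. The 9 computer-predicted records summed to 4.93 and 5.33 FPKM in the untreated samples and to 1.51 and 2.01 FPKM in the 5-AZA samples. With curated records alone the 5-AZA samples were thus the higher ones, and the log2 fold change was 0.19, with an adjusted p of 0.600 in limma with Benjamini-Hochberg adjustment. Over the other alternatives for Runx2 the log2 fold change lay between -0.77 and -0.55, and its adjusted p between 0.00489 and 0.0936 (limma, Benjamini-Hochberg).

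Single Runx2 transcripts moved in different directions. Of the 15, 5 had both 5-AZA values above both untreated values, 5 had both below, and 5 overlapped. The predicted variant X8 had 3.27 and 1.73 FPKM in the untreated samples and 0.0220 and 0.378 FPKM in the 5-AZA samples. The curated variant 3 had 1.06e-05 and 0.000230 FPKM in the untreated samples and 1.35 and 0.358 FPKM in the 5-AZA samples. X8 was therefore high in untreated cells and variant 3 was high after 5-AZA. Transcripts of a gene share sequence, so the division of reads among them is an estimate and the sum is the firmer value.

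**Figure D2:**
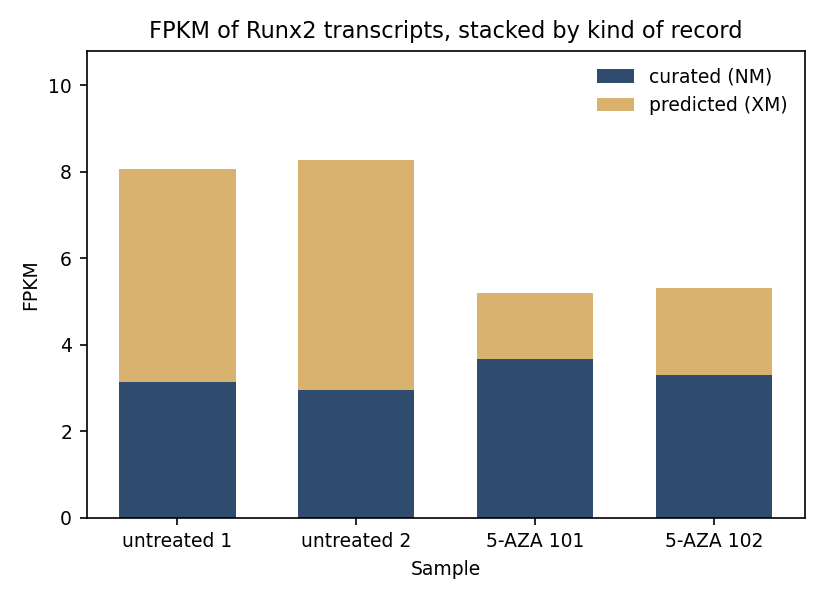
Summed FPKM of the curated and the predicted Runx2 transcript records in each sample, stacked from 0. The predicted records made up 4.93 and 5.33 FPKM of the untreated bars and 1.51 and 2.01 FPKM of the 5-AZA bars, while the curated part ranged from 2.95 to 3.68 FPKM.

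Noncoding RNAs from the Runx2 locus were measured in the same libraries. Of 19 listed lncRNAs that overlap an osteoblast gene, 5 reached 1 FPKM in at least 1 sample, and 8 were listed at 0 in all 4. On the Runx2 strand, NONMMUT029758.2 had 2.14 and 1.66 FPKM in untreated replicates 1 and 2 and 0.994 and 0.880 FPKM in 5-AZA replicates 101 and 102. NONMMUT029757.2, also on that strand, had 1.48 and 1.56 FPKM in the untreated samples and 0.840 and 0.528 FPKM in the 5-AZA samples. Both were lower in both 5-AZA samples, like the Runx2 sum. NONMMUT029763.2, which lies near the Runx2 start, had 1.11 and 0.944 FPKM in the untreated samples and 1.31 and 1.47 FPKM in the 5-AZA samples, and was thus higher after 5-AZA. The others that reached 1 FPKM overlapped between the groups. NONMMUT029760.2, on the strand opposite to Runx2, had 0.850 and 0.865 FPKM untreated and 1.41 and 0.175 FPKM after 5-AZA. NONMMUT053428.2, on the Spp1 strand, had 0.690 and 0.586 FPKM untreated and 0.680 and 1.33 FPKM after 5-AZA. Single-exon RNAs on the strand of a gene and unspliced RNA of that gene cannot be told apart here.

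Circular RNAs with a member as host came from Runx2 alone, and all 3 were near the limit of detection. circRNA_1852 had 4 reads in 5-AZA replicate 102, circRNA_1853 had 3 reads in untreated replicate 2, and circRNA_1854, on the opposite strand, had 2 reads in 5-AZA replicate 101. Each was seen in 1 sample, so no difference was detectable at this depth. circRNA_1853 spans chr17:44717192-44724901 and carries the circBase name mmu_circ_0000795.

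Dlx5, a homeobox factor that acts with Runx2 on osteoblast genes, had 0.761 and 0.645 FPKM in untreated replicates 1 and 2 and 1.44 and 0.951 FPKM in 5-AZA replicates 101 and 102. The 5-AZA samples were higher without overlap, but replicate 102 was close to the untreated samples. The log2 fold change was 0.67 ± 0.29 (SE), with an adjusted p of 0.137 in limma with Benjamini-Hochberg adjustment, and Dlx5 was not called. After quantile normalization its sign turned, to -0.18, with an adjusted p of 0.697 (limma, Benjamini-Hochberg) within a range of 0.119 to 0.697 over the alternatives.

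Sp7, or osterix, the zinc finger factor that osteoblasts need downstream of Runx2, was listed at 0 in both untreated samples and had 0.112 and 0.183 FPKM in 5-AZA replicates 101 and 102. It was detected in the 5-AZA samples alone, and its mean over all 4 samples, 0.0738 FPKM, was under the limit for testing. Alpl, the alkaline phosphatase that frees phosphate from pyrophosphate at the start of mineral formation, was also listed at 0 in the untreated samples and had 0.0325 and 0.0796 FPKM after 5-AZA. Neither gene was tested.

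The osteocalcin gene Bglap and its close copies Bglap2 and Bglap3 lie side by side on chromosome 3, and all 3 were higher after 5-AZA. Osteocalcin is a small vitamin K-dependent protein of bone matrix, and Bglap and Bglap2 are the copies that osteoblasts use most. Bglap had 1.71e-18 and 2.61e-10 FPKM in untreated replicates 1 and 2, in effect 0, and 3.85 and 3.72 FPKM in 5-AZA replicates 101 and 102. The groups lay far apart and the 5-AZA samples were close to each other. Bglap was called higher, with an adjusted p of 4.80e-06 (limma, Benjamini-Hochberg), and no fold is given because the untreated level is at 0.

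Bglap2 was the most abundant of the copies in every sample. It had 4.12 and 19.8 FPKM in untreated replicates 1 and 2 and 29.1 and 37.5 FPKM in 5-AZA replicates 101 and 102. The untreated samples thus differed more from each other than the 5-AZA samples did, although the groups did not overlap. Its log2 fold change was 1.86 ± 0.56 (SE), with an adjusted p of 0.0433 (limma, Benjamini-Hochberg). This call was lost under 10 of 13 alternatives, among them removal of 5-AZA replicate 101 (log2 fold change 2.04) or 102 (1.67). Without untreated replicate 1 the log2 fold change was 0.74, under the fold required, and without untreated replicate 2 it was 2.97.

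Bglap3 had 0.361 and 0.802 FPKM in untreated replicates 1 and 2 and 8.34 and 8.57 FPKM in 5-AZA replicates 101 and 102, with both 5-AZA samples far above both untreated ones. The log2 fold change was 3.73 ± 0.31 (SE), with an adjusted p of 4.16e-05 (limma, Benjamini-Hochberg). The call was lost without replicate 101 (log2 fold change 3.75) or 102 (3.71), where the change was about as large. Reads of such near-identical genes can be divided wrongly among them, so each copy's own value is uncertain. The sum of the 3 copies was 4.48 and 20.6 FPKM in the untreated samples and 41.3 and 49.8 FPKM in the 5-AZA samples. Summed, a step chosen after seeing the data, the log2 fold change was 2.22 ± 0.54 (SE), with an adjusted p of 0.0176 (limma, Benjamini-Hochberg). The untreated sums lay far apart, as for Bglap2, so the size of this change depends on which untreated sample is used. The sum was not refitted without single replicates.

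**Figure D3:**
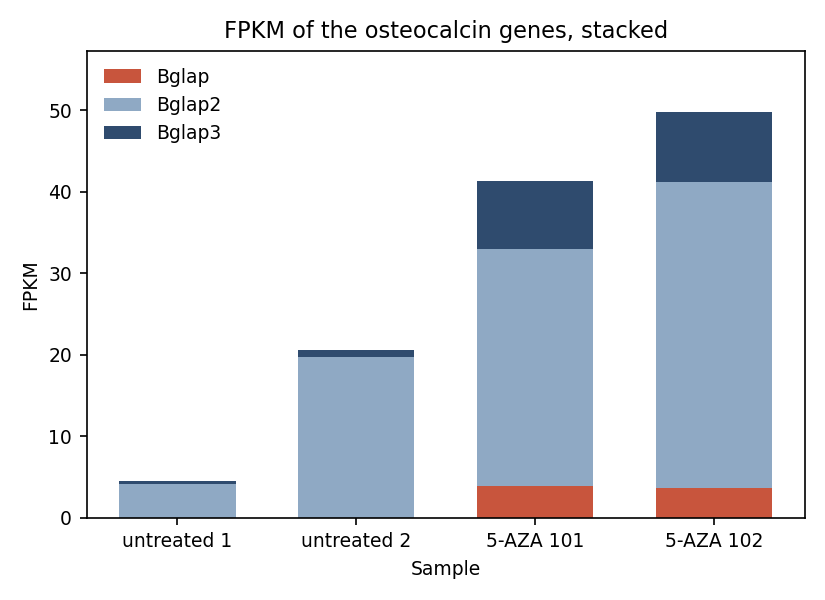
FPKM of Bglap, Bglap2 and Bglap3 in each sample, stacked from 0. The bars reach 4.48 and 20.6 FPKM in the untreated samples and 41.3 and 49.8 FPKM in the 5-AZA samples, and Bglap is visible in the 5-AZA bars alone.

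A run of acidic matrix genes lies on chromosome 5 in the order Dspp, Dmp1, Ibsp, Mepe and Spp1, and these neighbours differed from each other. Spp1, or osteopontin, a phosphoprotein that binds mineral and integrins and is also made by many other cells, had 133 and 123 FPKM in untreated replicates 1 and 2 and 437 and 377 FPKM in 5-AZA replicates 101 and 102. Both 5-AZA samples lay far above both untreated samples. Spp1 was 3.18-fold higher (log2 fold change 1.67 ± 0.11 SE), with an adjusted p of 1.12e-05 (limma, Benjamini-Hochberg), and the call held under all 13 alternatives run for it.

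Spp1 transcript variant 3 made up 93.1% and 91.6% of the gene's FPKM in untreated replicates 1 and 2 and 90.3% and 90.1% in 5-AZA replicates 101 and 102. Its share was therefore high in all 4 samples. Variant 1 had 7.88 and 6.82 FPKM in the untreated samples and 35.3 and 33.9 FPKM in the 5-AZA samples, and was the second most abundant form in each.

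Dmp1, an acidic matrix protein of osteocytes and dentin cells, had 0.478 and 0.237 FPKM in untreated replicates 1 and 2 and 1.30 and 1.503 FPKM in 5-AZA replicates 101 and 102. The groups did not overlap, at a low level. Dmp1 was called 3.39-fold higher (log2 fold change 1.76 ± 0.33 SE), with an adjusted p of 0.00482 (limma, Benjamini-Hochberg). The call was lost under 6 of 12 alternatives, among them removal of 5-AZA replicate 101 (log2 fold change 1.86) or 102 (1.66). Dmp1 also lost its call after quantile normalization (log2 fold change 0.83, adjusted p = 0.0637, limma with Benjamini-Hochberg adjustment). The same held with the curated record alone (2.02 and 0.0645) and with no limit on low values (1.76 and 0.0940). With 1 FPKM added in place of 0.1 its log2 fold change was also 0.83, under the fold required.

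The rest of the run was at or near 0. Ibsp, the bone sialoprotein gene between Dmp1 and Spp1, and Dspp, the dentin sialophosphoprotein gene, were listed at 0 in all 4 samples. Mepe, a phosphoglycoprotein gene of osteocytes, was listed at 0 in the untreated samples and had 0.0721 and 0.0198 FPKM in 5-AZA replicates 101 and 102.

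Phex, a membrane peptidase of osteoblasts and osteocytes whose loss causes X-linked low blood phosphate, had 5.18 and 3.91 FPKM in untreated replicates 1 and 2 and 20.6 and 16.4 FPKM in 5-AZA replicates 101 and 102. Both 5-AZA samples were high and the groups did not overlap. Phex was called 4.01-fold higher (log2 fold change 2.00 ± 0.18 SE), with an adjusted p of 6.61e-05 (limma, Benjamini-Hochberg). The adjusted p was 0.0783 without 5-AZA replicate 101 and 0.0662 without replicate 102 (limma, Benjamini-Hochberg), so the call was lost in those fits. Its smallest value over the alternatives was 1.03e-09.

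Sost, the sclerostin gene, encodes an osteocyte protein that blocks Wnt signals at Lrp5 and Lrp6. It was listed at 0 in both untreated samples and in 5-AZA replicate 102 and had 0.0172 FPKM in 5-AZA replicate 101. It was not tested.

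By mean FPKM, which is per transcript length, the order in untreated cells was Spp1 (128), Runx2 (8.17), Phex (4.55), Dlx5 (0.703) and Dmp1 (0.358), followed by the genes at or near 0. No neighbours among these overlapped in their sample values. After 5-AZA the order was Spp1 (407), Phex (18.5), Runx2 (5.25), Bglap (3.78), Dmp1 (1.40), Dlx5 (1.19), Sp7 (0.148), Alpl (0.0561), Sost (0.00860) and Ibsp at 0. Dmp1 and Dlx5 overlapped, as did Sost and Ibsp, and the other neighbours did not. Runx2 was above Phex in untreated cells and below it after 5-AZA when all records were summed. With curated records alone Runx2, at 3.13 and 2.95 FPKM untreated and 3.68 and 3.30 FPKM after 5-AZA, was below Phex in both groups.

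Promoter windows from RefSeq, build GRCm38.p6, were matched for 8 of the 10 genes, the others being Sp7 and Dlx5. Each window runs from 250 bases before to 50 bases after the start, and where a gene had several windows the one farthest upstream was used. 5-AZA acts on methylation at CG pairs, so these were counted. The number of CG pairs was 26 for Alpl, 7 for Dmp1 and Sost, 5 for Ibsp, 4 for Bglap and Phex, 3 for Spp1 and 2 for Runx2, against a median of 7 over 32851 windows (lower and upper quartiles 3 and 20). Few to middling numbers were found in the called genes and also in Ibsp, Sost and Runx2, so they did not set the called genes apart, and 16.9% of all windows had as many as Alpl or more. Methylation was not measured here.

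The windows of Alpl, the member with most CG pairs, and of Phex and Dmp1, both called higher, are shown 5′ to 3′ on the gene's strand, with CG pairs in capitals. They do not reach the lowest numbers, which were those of Runx2 and Spp1. Alpl lies on the minus strand at chr4:137796335-137796634, Phex on the minus strand at chrX:157415237-157415536, and Dmp1 on the plus strand at chr5:104197325-104197624.
Alpl: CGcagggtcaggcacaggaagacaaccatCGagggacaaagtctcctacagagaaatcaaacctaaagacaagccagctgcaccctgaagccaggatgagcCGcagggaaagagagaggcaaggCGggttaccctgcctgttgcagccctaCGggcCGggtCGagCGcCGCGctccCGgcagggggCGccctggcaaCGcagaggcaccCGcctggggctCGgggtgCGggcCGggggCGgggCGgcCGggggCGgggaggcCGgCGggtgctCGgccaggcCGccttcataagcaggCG
Phex: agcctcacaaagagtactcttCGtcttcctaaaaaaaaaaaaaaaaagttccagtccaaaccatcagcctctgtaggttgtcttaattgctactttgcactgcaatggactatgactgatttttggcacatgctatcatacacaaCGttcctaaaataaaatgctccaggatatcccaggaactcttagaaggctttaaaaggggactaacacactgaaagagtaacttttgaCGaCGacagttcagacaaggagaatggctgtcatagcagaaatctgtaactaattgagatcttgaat
Dmp1: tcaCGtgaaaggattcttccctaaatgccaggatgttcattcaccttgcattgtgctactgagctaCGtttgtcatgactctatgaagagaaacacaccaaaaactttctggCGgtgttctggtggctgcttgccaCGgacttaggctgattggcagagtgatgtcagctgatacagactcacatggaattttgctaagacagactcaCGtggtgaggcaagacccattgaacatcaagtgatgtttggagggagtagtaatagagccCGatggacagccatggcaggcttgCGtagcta

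The core letters bound by RUNX factors, TGTGGT, were searched on both strands (ACCACA on the other). They were found in 3 of the 8 windows, and in 16.8% of all windows. Runx2 itself held 3 copies, a number of 2 or more being found in 1.81% of windows, and Bglap and Spp1 held 1 copy each. These windows are shown because they belong to the factor and to 2 genes that were called higher while its summed level was lower. A match is a description of letters, and binding was not measured here. The copies are in capitals, 5′ to 3′ on the gene's strand. Runx2 lies on the minus strand at chr17:44814578-44814877, Bglap on the minus strand at chr3:88384417-88384716, and Spp1 on the plus strand at chr5:104434861-104435160.
Runx2: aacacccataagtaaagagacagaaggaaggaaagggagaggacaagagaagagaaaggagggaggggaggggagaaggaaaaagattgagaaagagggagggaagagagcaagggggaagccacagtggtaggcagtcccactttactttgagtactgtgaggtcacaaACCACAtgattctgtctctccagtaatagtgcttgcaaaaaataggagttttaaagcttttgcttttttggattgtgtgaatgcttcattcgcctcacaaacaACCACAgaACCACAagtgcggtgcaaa
Bglap: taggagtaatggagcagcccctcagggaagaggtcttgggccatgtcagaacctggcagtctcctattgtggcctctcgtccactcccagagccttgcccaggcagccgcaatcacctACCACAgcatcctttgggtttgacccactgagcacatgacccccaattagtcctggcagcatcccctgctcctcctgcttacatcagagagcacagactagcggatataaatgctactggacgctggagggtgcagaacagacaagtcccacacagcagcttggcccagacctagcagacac
Spp1: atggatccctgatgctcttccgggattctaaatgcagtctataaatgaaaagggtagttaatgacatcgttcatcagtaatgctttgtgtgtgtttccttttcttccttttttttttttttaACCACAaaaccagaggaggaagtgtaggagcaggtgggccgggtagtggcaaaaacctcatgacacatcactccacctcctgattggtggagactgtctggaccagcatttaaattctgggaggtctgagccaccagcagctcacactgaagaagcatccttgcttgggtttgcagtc

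The genes whose pattern over the 4 samples was most like that of each osteoblast gene were sought among 10800 genes with a mean of at least 1 FPKM. The measure was the root mean square difference of centred log2(FPKM + 0.1) over 4 samples. Nearest to Runx2 were the lipid phosphatase gene Plpp2 (0.0124) and the ATP-gated channel gene P2rx4 (0.0216). Plpp2 had 30.9 and 31.6 FPKM in the untreated samples and 20.4 and 20.6 FPKM in the 5-AZA samples. Nearest to Phex were the thrombomodulin gene Thbd (0.0267), with 6.53 and 5.01 FPKM in untreated replicates 1 and 2 and 27.1 and 21.5 FPKM in 5-AZA replicates 101 and 102, and the interferon-inducible gene Ifi203 (0.0490).

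Spp1 was nearest to the aldehyde oxidase gene Aox1 (0.0389) and the repressor gene Zbtb18 (0.0412), and Dmp1 to the Notch target Hes1 (0.0802) and the translation factor gene Eif4e3 (0.0880). Bglap was nearest to the muscle gene Smpx (0.0451), which was listed at 0 in the untreated samples and had 3.72 and 3.44 FPKM after 5-AZA, and to Cyp2c55 (0.0846). Dlx5 was nearest to Plac9b (0.0743) and Colec10 (0.0799). Within 0.1 lay 234 genes for Runx2, 9 for Spp1, 6 for Phex and 3 each for Dlx5, Bglap and Dmp1.

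Factors that act with Runx2 on osteoblast genes and factors that act against it were read next, beside all genes, of which 13.1% were called higher and 1.32% lower. Of 15 listed activators of osteoblast genes, 13 were tested, 3 were called higher and 0 lower (also 0 at an unadjusted p under 0.05 in limma and that fold), with a median log2 fold change of 0.34 against 0.05 for all genes. The homeobox genes Dlx3 and Dlx6 were listed at 0 in the untreated samples and had 0.382 and 0.533 FPKM and 0.370 and 0.292 FPKM in 5-AZA replicates 101 and 102. The AP-1 subunit gene Fosl1 had 1.70 and 1.04 FPKM in the untreated samples and 4.24 and 3.62 FPKM in the 5-AZA samples. All 3 were low genes that were higher in both 5-AZA samples. Dlx3 and Dlx6 passed the limit for testing only through the 5-AZA samples, so their calls could only be in that direction and are not read against the share over all genes. The same holds for Cthrc1, Ahsg, Bmp6 and Sostdc1 in the pathway lists described next, and for Krt18, Cdh5, Epcam, Cidec, Pck1, Acp5, Kera and several muscle genes, Myod1 among them, in the marker lists. All these genes also enter the medians of their lists, which are raised by them for that reason. The call of Fosl1 was lost without 5-AZA replicate 101 (adjusted p = 0.178, limma with Benjamini-Hochberg adjustment) or 102 (0.153), and with no limit on low values (0.0919). Dlx6 lost its call after quantile normalization (log2 fold change 0.85, adjusted p = 0.115, limma with Benjamini-Hochberg adjustment), and could not be tested without replicate 101. With 1 FPKM added, Dlx3 and Dlx6 changed by less than 2-fold. Of the factors not called, those of highest mean level were Cbfb, the partner of Runx2, with 46.7 and 43.4 FPKM untreated and 40.9 and 44.9 FPKM after 5-AZA, and Atf4, Yap1 and Wwtr1.

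Of 11 listed inhibitors of Runx2 or of osteoblast differentiation, 9 were tested, 2 were called higher and 0 lower (also 0 at an unadjusted p under 0.05 in limma and that fold), with a median of 0.29. The Notch target Hes1 had 3.31 and 1.62 FPKM in untreated replicates 1 and 2 and 7.45 and 8.22 FPKM in 5-AZA replicates 101 and 102, and the corepressor gene Runx1t1 had 0.511 and 0.615 FPKM and 1.73 and 1.31 FPKM. The 5-AZA samples were the high ones in each case. Both calls were lost without replicate 101 (adjusted p from 0.106 to 0.198, limma with Benjamini-Hochberg adjustment) or 102 (from 0.0833 to 0.217), and with no limit on low values (from 0.0782 to 0.121). Runx1t1 lost its call after quantile normalization too (log2 fold change 0.49, adjusted p = 0.255, limma, Benjamini-Hochberg), and changed by less than 2-fold with 1 FPKM added. Twist1, which blocks Runx2, was not called, with 7.95 and 6.60 FPKM untreated and 8.20 and 9.55 FPKM after 5-AZA, and neither were the ubiquitin ligase genes Smurf2 and Wwp1 or Zfp521.

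Of 14 listed genes of other bone matrix proteins, 11 were tested, 4 were called higher and 0 lower (also 0 at an unadjusted p under 0.05 in limma and that fold), with a median of 0.09. Besides Bglap2 and Bglap3 these were Mgp and Cthrc1. Mgp, the matrix Gla protein that restrains mineral formation, had 74.3 and 71.2 FPKM in untreated replicates 1 and 2 and 475 and 526 FPKM in 5-AZA replicates 101 and 102, with a log2 fold change of 2.78 ± 0.10 (SE) and an adjusted p of 5.04e-07 (limma, Benjamini-Hochberg). Cthrc1, a secreted collagen regulator, was listed at 0 in the untreated samples and had 0.820 and 0.469 FPKM after 5-AZA, and changed by less than 2-fold with 1 FPKM added. Sparc, or osteonectin, had 672 and 663 FPKM in the untreated samples and 631 and 673 FPKM in the 5-AZA samples, and Col1a2, a chain of type I collagen, had 600 and 557 FPKM and 420 and 475 FPKM. Neither was called, nor were Postn and Serpinf1. Mgp was thus above Col1a2 in both 5-AZA samples when compared within a sample, and below it in both untreated samples.

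Of 14 genes of mineral and phosphate handling, 13 were listed, 10 were tested, 4 were called higher and 0 lower (also 0 at an unadjusted p under 0.05 in limma and that fold), with a median of 0.43. Phospho1, a phosphatase of matrix vesicles, had 0.996 and 0.506 FPKM in untreated replicates 1 and 2 and 3.45 and 4.78 FPKM in 5-AZA replicates 101 and 102. Vdr, the vitamin D receptor gene, had 2.91 and 2.98 FPKM in the untreated samples and 6.88 and 8.51 FPKM in the 5-AZA samples. Both were higher in both 5-AZA samples, as were the low genes Smpd3 and Ahsg. Without replicate 101 the calls of Phospho1 and Smpd3 were lost (adjusted p from 0.0884 to 0.119, limma with Benjamini-Hochberg adjustment), and without replicate 102 those of Phospho1, Smpd3 and Vdr (from 0.0651 to 0.146). Over all alternatives run for each gene, Ahsg lost its call under 5 of 10, Smpd3 under 5 of 12 and Phospho1 under 3 of 13. Ahsg could not be tested without 5-AZA replicate 101 or 102, and lost its call without untreated replicate 1 (adjusted p = 0.0791, limma with Benjamini-Hochberg adjustment) or 2 (0.177). After quantile normalization the log2 fold change was 0.16 for Ahsg and 0.28 for Smpd3, with adjusted p of 0.759 and 0.421 (limma, Benjamini-Hochberg). Ank, which exports pyrophosphate, was not called, with 54.7 and 46.1 FPKM and 54.2 and 53.5 FPKM, and neither were Fgfr1, Fam20c and Enpp1.

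Of 10 other late osteoblast, osteocyte and bone turnover genes, 9 were tested, 1 was called higher and 1 lower, with a median of 0.29. Gja1, the gap junction gene of osteocytes, had 10.2 and 8.37 FPKM in untreated replicates 1 and 2 and 38.8 and 34.6 FPKM in 5-AZA replicates 101 and 102. Tnfrsf11b, or osteoprotegerin, which blocks osteoclast formation, had 31.3 and 32.5 FPKM in the untreated samples and 14.7 FPKM in each 5-AZA sample. Gja1 was thus high and Tnfrsf11b low after 5-AZA, with no overlap, and the adjusted p of Gja1 was 0.0529 without replicate 101 (limma, Benjamini-Hochberg). Cdh11, Capg, Pdpn and Irx5 were not called.

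Of 6 receptors of acidic bone matrix proteins, all were tested, 1 was called higher and 1 lower, with a median of -0.34. Itga8 had 0.242 and 0.365 FPKM in the untreated samples and 1.38 and 1.62 FPKM in the 5-AZA samples. Itgb3, whose product forms the main osteopontin receptor with that of Itgav, had 9.48 and 8.60 FPKM in untreated replicates 1 and 2 and 3.30 and 4.09 FPKM in 5-AZA replicates 101 and 102, so that it was low where Spp1 was high. Both calls were lost without replicate 101 (adjusted p from 0.0651 to 0.0792, limma with Benjamini-Hochberg adjustment) or 102 (from 0.0530 to 0.0921), and Itga8 changed by less than 2-fold with 1 FPKM added. Itgb1, Itgav, Itgb5 and Itga5 were not called.

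In BMP signalling, a main inducer of osteoblasts, 14 of 18 genes were tested, 2 were called higher and 0 lower (also 0 at an unadjusted p under 0.05 in limma and that fold), with a median of 0.14. The ligand gene Bmp6 had 0.0510 and 0.120 FPKM in the untreated samples and 0.550 and 1.13 FPKM in the 5-AZA samples, and the BMP antagonist gene Grem1 had 3.03 and 2.63 FPKM and 10.7 and 8.08 FPKM. Both were lost without replicate 101 (adjusted p from 0.0670 to 0.0695, limma with Benjamini-Hochberg adjustment) or 102 (from 0.0516 to 0.108). Bmp6 lost its call under 5 of 12 alternatives in all, among them quantile normalization (adjusted p = 0.0776, limma with Benjamini-Hochberg adjustment). The response genes Id1 and Id3, the receptor gene Bmpr1a and the mediator gene Smad5 were not called, and Id3 had 68.4 and 56.6 FPKM and 63.7 and 73.7 FPKM. The ligands Bmp2 and Bmp7 were listed at 0 in all 4 samples.

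Around the receptors that sclerostin blocks, 11 of 14 Wnt genes were tested, 4 were called higher and 0 lower (also 0 at an unadjusted p under 0.05 in limma and that fold), with a median of 0.56. All 4 encode secreted Wnt modulators. Sfrp2 had 2.90 and 2.37 FPKM in untreated replicates 1 and 2 and 20.1 and 29.5 FPKM in 5-AZA replicates 101 and 102, and Dkk2 had 0.245 and 0.184 FPKM and 4.04 and 2.19 FPKM. Sfrp4 had 0.189 and 0.183 FPKM in the untreated samples and 2.10 and 2.21 FPKM in the 5-AZA samples, and Sostdc1, a relative of Sost, had 0.0164 and 0 FPKM and 0.436 and 0.923 FPKM. The 5-AZA samples were high for each of these genes. Sfrp2, Dkk2 and Sfrp4 kept their calls under all 13 alternatives, and Sostdc1 lost its call under 2 of 12. The receptor gene Lrp6 was not called, with 30.0 and 29.2 FPKM and 30.8 and 34.5 FPKM, and neither were Ctnnb1, Sfrp1 and Lrp5.

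**Figure D4:**
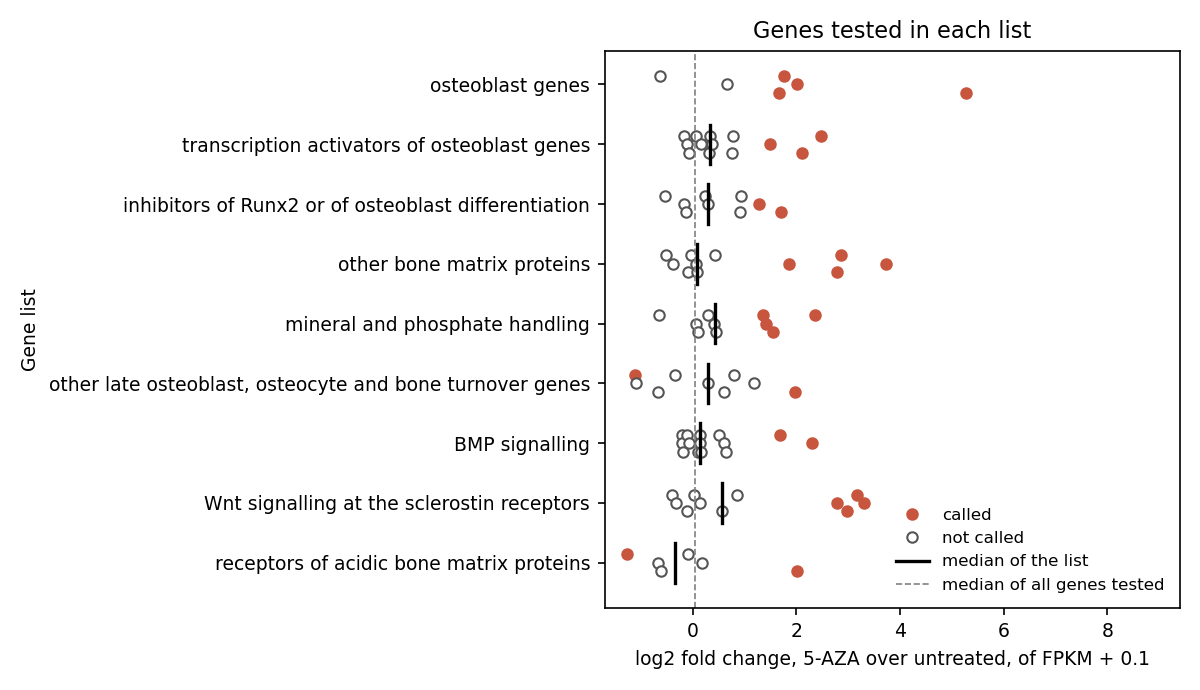
The log2 fold change of each tested gene in the osteoblast genes and the pathway lists, on the scale of FPKM + 0.1, with called genes filled, the median of each pathway list as a bar and the median of all genes (0.05) as a dashed line. The place of Bglap at the far right depends on the 0.1 added, since its untreated level is at 0. Medians of the pathway lists lie between -0.34 and 0.56.

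Markers of other cell types moved with the groups and were read beside the osteoblast genes. All 10 skeletal muscle markers were called higher, and the list summed to 1.63 and 1.30 FPKM in the untreated samples and to 814 and 1248 FPKM in the 5-AZA samples, with Mylpf, a fast myosin light chain gene, the most abundant. The others were the regulators Myod1 and Myog and the contractile or muscle fibre genes Acta1, Tnnt3, Tnni2, Ckm, Myh3, Des and Actn2. Of 10 adipocyte markers 9 were tested and 8 called higher, and the list summed to 48.7 and 32.9 FPKM and to 1149 and 1580 FPKM, with the fatty acid carrier gene Fabp4 on top. Adipoq, Lpl, Cfd, Plin1, Cidec, Cebpa and Pck1 were the other genes called, and the regulator Pparg was not called. Muscle and fat markers were thus high in both 5-AZA samples, together with Spp1, Phex and the osteocalcin genes. Medians of these lists were 8.03 and 4.89. Of the adipocyte calls, 4 (Adipoq, Cfd, Fabp4 and Plin1) were lost without 5-AZA replicate 101 (adjusted p from 0.0579 to 0.101, limma with Benjamini-Hochberg adjustment) or 102 (from 0.0657 to 0.109). Pck1 and Myod1 lost their calls with 1 FPKM added and with no limit on low values.

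Of 13 chondrocyte markers 11 were tested, 6 were called lower and 2 higher, with a median of -1.26 and a summed level of 174 and 166 FPKM in the untreated samples and 47.8 and 73.0 FPKM in the 5-AZA samples. Col2a1, the cartilage collagen gene, was the most abundant, with 67.5 and 57.1 FPKM and 4.13 and 6.84 FPKM. Col11a1, Sox9, Col9a1, Sox6 and Matn1 were also lower, and Matn3 and Comp were higher, while Hapln1, Sox5 and Col10a1 were not called. Matn1, with 0.372 and 0.941 FPKM untreated and 0.0195 and 0.0718 FPKM after 5-AZA, passed the limit for testing only through the untreated samples, so its call could only be lower, and it changed by less than 2-fold with 1 FPKM added (log2 fold change -0.64). Of 6 tendon and ligament markers 5 were tested, 2 were called lower and 1 higher, with a median of -0.30. Their sum was 141 and 148 FPKM in the untreated samples and 15.0 and 16.6 FPKM in the 5-AZA samples, mostly from the tenomodulin gene Tnmd. Scx and Mkx were not called. The summed levels of both lists were thus lower in both 5-AZA samples, carried largely by Col2a1, Col11a1, Col9a1 and Sox9 in the first and by Tnmd in the second, while single genes of each list went the other way. On removal of a replicate, calls lost were Matn1 and Sox6 without replicate 101, Comp, Matn1 and Matn3 without 102, Matn1 without untreated replicate 2, Fmod and Kera without 101 or 102, and Kera without either untreated replicate (adjusted p from 0.0537 to 0.200, limma with Benjamini-Hochberg adjustment). With no limit on low values, 7 of the 8 chondrocyte calls were lost, all but Col2a1 (from 0.0593 to 0.111, limma with Benjamini-Hochberg adjustment), as were Fmod and Kera. Kera lost its call under 8 of 12 alternatives in all, and after quantile normalization its log2 fold change was 0.16. Tnmd kept its call under all 13.

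Spp1 is also a gene of macrophages and osteoclasts, so markers of these cells were read. Of 10 osteoclast markers 4 were tested and 2 called higher, with a median of 2.05 and sums of 3.65 and 3.87 FPKM in the untreated samples and 23.4 and 30.6 FPKM in the 5-AZA samples. The most abundant was Ctsk, the cathepsin K gene, with 0.0954 and 0.456 FPKM untreated and 19.2 and 25.5 FPKM after 5-AZA, and the other called gene was Acp5. Nfatc1 and Atp6v0d2 were not called. Nfatc1 overlapped between the groups (log2 fold change -0.25). Atp6v0d2 lay in the other direction, with 0.563 and 1.16 FPKM untreated and 0.402 and 0.285 FPKM after 5-AZA (log2 fold change -1.06). The median of 2.05 includes Acp5, which passed the limit for testing only through the 5-AZA samples. Without Acp5 the middle log2 fold change is that of Nfatc1. The defining genes Calcr, Dcstamp, Ocstamp and Tnfrsf11a were listed at 0 in all 4 samples. The call of Ctsk was lost without replicate 101 (adjusted p = 0.0818, limma with Benjamini-Hochberg adjustment) or 102 (0.0899).

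Of 10 macrophage markers 3 were tested and 1, Cd68, was called higher, with a median of 0.34 and sums of 4.52 and 5.79 FPKM in the untreated samples and 6.39 and 8.45 FPKM in the 5-AZA samples. Cd14 was the most abundant, and neither it nor Lyz2 was called. The defining genes Adgre1, Aif1 and Tyrobp were listed at 0 in all 4 samples, and Csf1r stayed at 0.0639 FPKM or less. Itgam, Fcgr1 and Ptprc were in effect 0 in the untreated samples and had 0.0748 and 0.0146 FPKM, 0.0105 and 0.0116 FPKM, and 0.0631 and 0 FPKM in 5-AZA replicates 101 and 102. The call of Cd68 was lost under 10 of 13 alternatives, among them removal of replicate 101 (adjusted p = 0.0975, limma with Benjamini-Hochberg adjustment) or 102 (0.197), and of untreated replicate 1, where the change was under 2-fold (0.0346).

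Of 9 markers of the labelled mesenchymal type 8 were tested and 1, Thy1, was called higher, with 10.4 and 14.2 FPKM in the 5-AZA samples and a list median of 0.52. The list summed to 2670 and 2779 FPKM in the untreated samples and 1751 and 1906 FPKM in the 5-AZA samples, mostly from the intermediate filament gene Vim. Of 6 epithelial or endothelial genes, all tested, 4 were called higher (Krt8, Krt18, Cdh5 and Epcam), with a median of 1.83. Cdh1, the E-cadherin gene, was not called and lay in the other direction, with 0.4995 and 0.4972 FPKM untreated and 0.157 and 0.367 FPKM after 5-AZA, and Pecam1 was not called. Krt8, a keratin gene, was the most abundant, and the list summed to 1.02 and 0.906 FPKM and to 20.5 and 25.5 FPKM. Krt8 and Krt18 kept their calls under all 13 alternatives. Cdh5 lost its call under 4 of 11, with a log2 fold change of 0.69 after quantile normalization (adjusted p = 0.317, limma, Benjamini-Hochberg), and could not be tested without replicate 101. The call of Epcam was lost under 7 of 11, among them removal of replicate 101 (adjusted p = 0.0783, limma with Benjamini-Hochberg adjustment) or of untreated replicate 1 (0.0589) or 2 (0.148) and quantile normalization (0.608), and it could not be tested without replicate 102. Shares of cell types were not measured, and what part they had in the levels of the osteoblast genes was not tested.

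**Figure D5:**
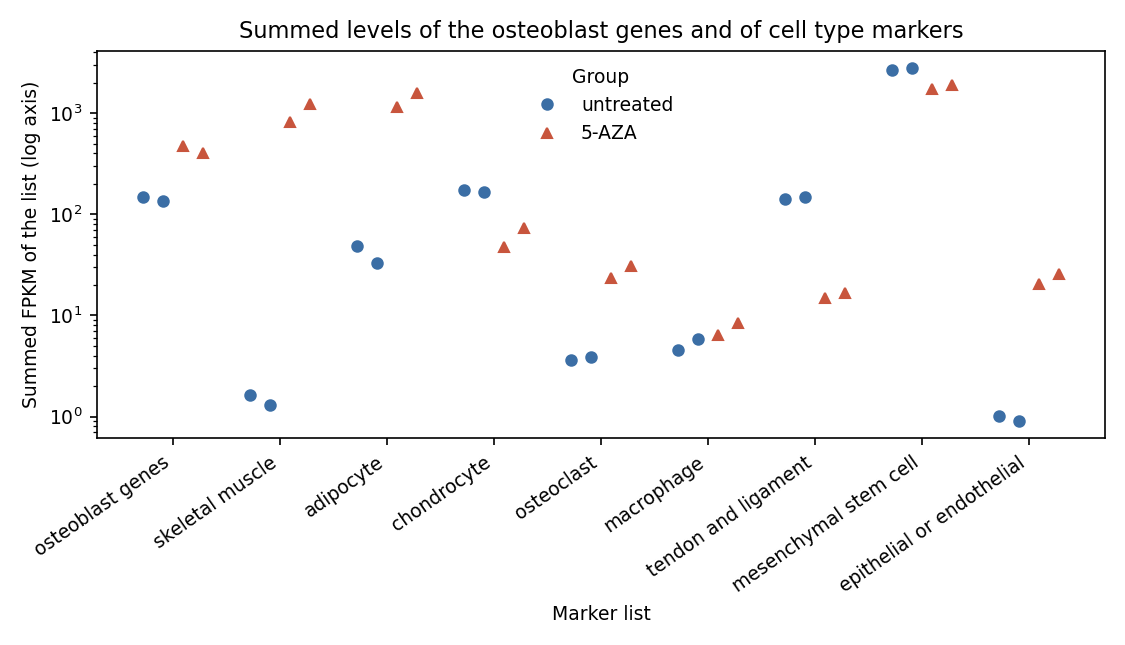
Summed FPKM of the osteoblast genes and of each list of cell type markers on a log axis, with 1 point for each sample (circles untreated, triangles 5-AZA). Muscle markers reach 814 and 1248 FPKM and adipocyte markers 1149 and 1580 FPKM in the 5-AZA samples, against 470 and 406 FPKM for the osteoblast genes, most of it Spp1.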

How the data were processed

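RNA of 2 untreated and 2 5-AZA samples was sequenced after ribosomal depletion with a stranded kit. The authors deposited FPKM per mRNA and lncRNA transcript and RPM per circular RNA, and their processing notes name Trimmomatic, HISAT2, Bowtie2 2.2.9 and eXpress 1.5.1. The notes list build mm9, but 2380 of 2388 circular RNA host transcripts lay on the RefSeq GRCm38.p6 span of their gene within 5000 bases, so positions are on GRCm38. FPKM were summed per gene and tested with limma 3.58.1 in R 4.3.3 (lmFit and eBayes with trend, log2 of FPKM + 0.1, genes with a mean of at least 0.1 FPKM), with Benjamini-Hochberg adjustment over all genes tested. The table holds FPKM, so a count test was not used. The fit was tested on simulated data. Files were read with pandas 2.3.3 in Python 3.11.15. Named genes were the 10 members, Bglap2, Bglap3, Mepe and Dspp, every called gene of each list, up to 4 uncalled genes of highest mean FPKM per list, and the 2 nearest genes of each member with at least 1 FPKM. Defining markers at or near 0 (Nt5e, Calcr, Dcstamp, Ocstamp, Tnfrsf11a, Adgre1, Aif1, Tyrobp, Csf1r, Itgam, Fcgr1 and Ptprc) and the ligands Bmp2 and Bmp7 were named after their values were seen. One list gene is not reported here. Members and lists were chosen with earlier results of these data known. Alternatives were other pseudocounts, limits and scalings, a fit without trend, removal of each replicate, and curated transcripts alone.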

Additional observations from a re-analysis of the deposited data

How the results depend on the processing

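Spp1 and Bglap each kept their call under the 13 alternatives run for the gene itself. Bglap passed the limit for testing only through its 5-AZA samples, so its call could only be higher. None of these alternatives changed how reads were divided among Bglap, Bglap2 and Bglap3. The counts of all genes called higher (1724) and lower (174) became 875 and 86 with 1 FPKM added, 1041 and 886 after quantile normalization, and 845 higher with a mean of at least 1 FPKM, where fewer genes were tested (10800). They became 83 lower with no limit on low values and 274 lower with each sample scaled to its FPKM sum over mRNAs and lncRNAs, a step chosen after seeing the data. Removing single replicates gave 733 to 1617 higher and 52 to 184 lower calls, and 2 to 4 osteoblast genes called higher. In those fits the lone sample of a group is assumed to vary like the other group. Runx2 turned to 0.19 with curated transcripts alone and Dlx5 to -0.18 after quantile normalization, and the cause was not tested. Of 60 called genes in the lists, 23 kept their call under each alternative run, and 23 lost it without 5-AZA replicate 101 and 23 without 102, where another 3 (Ahsg, Cdh5 and Dlx6) and 2 (Ahsg and Epcam) were under the limit and could not be tested. Some genes that kept their call under each alternative, Krt18, Cidec and Acp5 among them, passed the limit for testing only through the 5-AZA samples. Their calls could only be higher. No paired analysis was possible because the groups share no replicate number. The number of reads behind an FPKM value is not given in the sources used here, so the precision of the low values of Sp7, Alpl and Sost is not known.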
